A study of Mus musculus with 6 samples.

Results

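The 9 genes described here encode noncollagenous proteins of bone matrix or products of osteoblasts: Spp1, Ibsp, Dmp1, Mepe, Bglap, Bglap2, Sparc, Ifitm5 and Postn. They were chosen by name and matched to the Ensembl identifiers of a gene count table with 55401 genes, and all 9 were found. RNA-seq was made from C3H10T1/2 cells, a mouse mesenchymal line that can form bone, fat or cartilage cells in culture. The cells carried a control short hairpin RNA (shControl), one against Nfib (shNFIB) or one against Kmt2a, the gene of MLL1 (shMLL1), and were taken untreated at day 0 or after 7 days in osteogenic medium. Dexamethasone (0.1 µM), β-glycerophosphate (20 mM) and a phosphate ester of ascorbic acid (100 µg per ml) made up that medium, which was the same for the 3 lines. The shControl line carries the unaltered genotype by its label, and each of the 6 conditions is 1 library. A difference between a pair of libraries therefore has no replicate check and carries an interval of counting error only. Each hairpin stands in 1 line of cells, so an effect of the knocked-down gene and a difference between cultures cannot be told apart.

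Bone matrix is mostly mineral and collagen, and the small remainder of noncollagenous proteins binds cells, calcium and collagen and shapes where mineral forms. Osteopontin (Spp1), bone sialoprotein (Ibsp), dentin matrix protein 1 (Dmp1) and matrix extracellular phosphoglycoprotein (Mepe) are acidic phosphoproteins of the SIBLING family (small integrin-binding ligand, N-linked glycoproteins), whose genes lie side by side. Osteocalcin (Bglap and its close copy Bglap2) is a vitamin K-dependent protein of mature osteoblasts, whereas osteonectin (Sparc) and periostin (Postn) are made by many mesenchymal cells, and Ifitm5 is a small membrane protein of osteoblasts.

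The promoters of the 4 members that passed the filter on low counts, and of Dmp1 and Bglap, are shown because these genes differed in their course over the lines and days. RefSeq (build GRCm38.p6) gave a window of 250 bases before to 50 bases after the start for 8 of the 9 members, and Bglap2 had no entry. Capitals mark 3 short motifs searched on both strands: the core bound by RUNX factors (ACCACA or TGTGGT), a half-site of nuclear factor I, the family of NFIB (TTGGC or GCCAA), and a homeodomain core (TAATTA). No motif overlapped another in these windows. Of the 32851 windows of this length in the table, 16.8% held the RUNX core, 46.7% the nuclear factor I half-site and 5.29% the homeodomain core. Spp1, Dmp1 and Postn each had 2 windows in the table, and the one nearest the annotated start of the gene is shown. The other window of Spp1 (chr5:104435942-104436241) held the homeodomain core and no RUNX core, that of Dmp1 (chr5:104197325-104197624) held a nuclear factor I half-site and no RUNX core, and that of Postn (chr3:54359017-54359316) held no match to these motifs. The only window of Sparc lies inside the gene as annotated (chr11:55394500-55423183, minus strand), downstream of the annotated start at 55423183. Coordinates are 1-based, and each window is written 5′ to 3′ along its gene.
Spp1, chr5:104434861-104435160, plus strand: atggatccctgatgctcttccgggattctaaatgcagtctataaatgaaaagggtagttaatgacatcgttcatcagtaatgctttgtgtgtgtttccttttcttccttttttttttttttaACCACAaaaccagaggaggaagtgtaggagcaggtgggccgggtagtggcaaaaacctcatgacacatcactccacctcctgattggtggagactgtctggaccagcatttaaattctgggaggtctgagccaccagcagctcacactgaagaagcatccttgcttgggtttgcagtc
Dmp1, chr5:104202367-104202666, plus strand: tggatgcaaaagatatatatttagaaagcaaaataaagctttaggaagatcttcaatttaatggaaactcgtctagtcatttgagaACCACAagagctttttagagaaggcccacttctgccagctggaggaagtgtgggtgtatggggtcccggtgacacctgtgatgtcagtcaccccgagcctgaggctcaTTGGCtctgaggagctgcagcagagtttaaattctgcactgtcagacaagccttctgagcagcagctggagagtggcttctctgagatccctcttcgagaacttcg
Bglap, chr3:88384417-88384716, minus strand: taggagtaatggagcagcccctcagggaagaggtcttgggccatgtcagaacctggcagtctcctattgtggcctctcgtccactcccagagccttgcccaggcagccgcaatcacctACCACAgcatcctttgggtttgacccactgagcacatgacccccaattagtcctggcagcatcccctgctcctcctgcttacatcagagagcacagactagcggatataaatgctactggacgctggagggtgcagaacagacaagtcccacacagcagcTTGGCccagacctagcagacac
Sparc, chr11:55420031-55420330, minus strand: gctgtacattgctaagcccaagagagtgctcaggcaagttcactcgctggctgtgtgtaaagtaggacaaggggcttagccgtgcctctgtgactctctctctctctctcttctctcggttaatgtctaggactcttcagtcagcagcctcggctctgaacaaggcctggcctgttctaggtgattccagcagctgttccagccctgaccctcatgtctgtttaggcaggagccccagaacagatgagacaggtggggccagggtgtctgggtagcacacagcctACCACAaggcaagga
Postn, chr3:54360857-54361156, plus strand: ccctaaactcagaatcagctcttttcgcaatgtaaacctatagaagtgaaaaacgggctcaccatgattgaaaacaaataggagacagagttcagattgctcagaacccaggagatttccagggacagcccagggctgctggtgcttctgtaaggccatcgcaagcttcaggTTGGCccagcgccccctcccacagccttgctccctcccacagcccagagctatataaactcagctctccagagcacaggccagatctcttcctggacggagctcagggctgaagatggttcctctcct
Ifitm5, chr7:140950194-140950493, minus strand: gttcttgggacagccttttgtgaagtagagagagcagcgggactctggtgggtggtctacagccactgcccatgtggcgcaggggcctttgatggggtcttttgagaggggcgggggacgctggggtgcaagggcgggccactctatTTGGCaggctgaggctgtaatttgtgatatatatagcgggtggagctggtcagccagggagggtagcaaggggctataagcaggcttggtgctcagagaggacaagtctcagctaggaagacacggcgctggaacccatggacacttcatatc

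The RUNX core stood at -128 in the Spp1 window, at -132 in that of Bglap, at -164 in that of Dmp1 and at 36 after the start in that of Sparc, counting the first base of the motif from the RefSeq start. The nuclear factor I half-site stood at -56 in the Dmp1 window, at 29 after the start in that of Bglap, at -78 in that of Postn and at -103 in that of Ifitm5. The windows of Mepe and Ibsp, which are not shown, also held matches. That of Mepe held the RUNX core at -118 and -80, the nuclear factor I half-site at 46 and the homeodomain core at -208. That of Ibsp held the nuclear factor I half-site at -172 and -53 and no RUNX core. These matches describe letters in the windows and were not tested as binding sites.

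The 6 libraries held 21608680 to 34774066 counts, so 3 counts, the floor used here, corresponded to 0.0939 to 0.123 CPM, the counts-per-million unit after edgeR's TMM scaling. The hairpin targets were lower in their own lines. Nfib had 1115 counts in shNFIB and 3715 in shControl at day 0, and 241 and 2546 at day 7. Kmt2a had 933 counts in shMLL1 and 2387 in shControl at day 0, and 850 and 2022 at day 7. All 10 mesenchymal markers had at least 10 counts in every library, whereas of 11 osteoblast markers 7 to 9 did, with Ibsp at 0 throughout. Of 9 macrophage and osteoclast markers 3 to 5 had at least 10 counts, and their summed level was 20.2 to 29.6 CPM. Adgre1 and Tyrobp were at 0 in every library, whereas Cd14 had 258 to 703 counts, and Cd68 had 38 to 217 and rose over the days (log2 fold change 1.80, adjusted p = 0.007, edgeR). Of 4 endothelial markers 1 to 2 had at least 10 counts, with a summed level of 2.76 to 25.4 CPM. Kdr had at most 3 counts, whereas Tek had 66 to 795 and fell (log2 fold change -1.85, adjusted p = 0.0365, edgeR). The part of these markers in the results was not tested.

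The members fell into 2 widely separated ranges of expression. Spp1, Sparc and Postn had at least 6682 counts in every library, Ifitm5 had 10 to 79, Dmp1 and Bglap passed 10 counts only in some or 1 of the libraries, and Bglap2, Mepe and Ibsp never did. Of the 9 members 8 had at least 1 count and 4 passed the filter on low counts used for testing. In bulk libraries fewer cells of a type and less RNA per cell cannot be told apart.

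**Figure D1:**
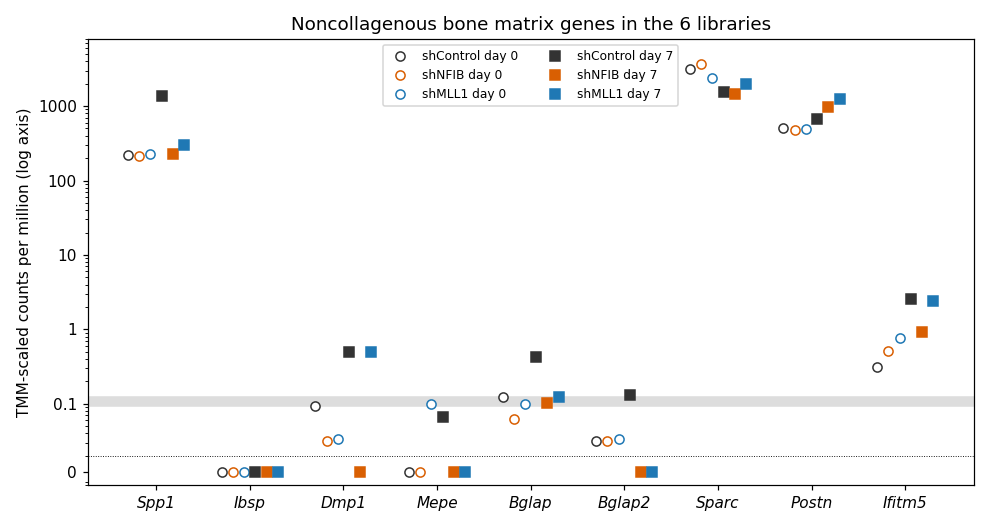
Level of each member in the 6 libraries, as TMM-scaled CPM on a log axis, with open circles for day 0 and filled squares for day 7; libraries at 0 are drawn under the dotted line, and the grey band spans the CPM that 3 counts correspond to. Spp1 at day 7 in shControl, at 1381 CPM, stands above its other 5 libraries, which lie between 216.7 and 303.5 CPM.

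Among the secreted phosphoproteins, Spp1 was the one with a high level and the one that set shControl at day 7 apart. Osteopontin binds integrins and CD44 and, when phosphorylated, inhibits crystal growth. Spp1 (chromosome 5, 104435118 to 104441050, plus strand) had 6930 counts in shControl, 6843 in shNFIB and 6771 in shMLL1 at day 0. At day 7 it had 42101 counts in shControl, 6682 in shNFIB and 7406 in shMLL1. Libraries of day 0 lay close together at 216.7 to 224.4 CPM, whereas at day 7 shControl stood at 1381 CPM against 226.0 in shNFIB and 303.5 in shMLL1.

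Between day 0 and day 7 Spp1 was 6.37-fold higher in shControl, 1.04-fold in shNFIB and 1.35-fold in shMLL1. On the log2 scale shNFIB moved by 0.06 (95% counting interval 0.01 to 0.11), shMLL1 by 0.44 (0.39 to 0.48) and shControl by 2.67 (2.63 to 2.71). Per kilobase of exon, which allows levels to be set between genes, Spp1 reached 838 in shControl at day 7 and was 28th of 16937 protein-coding genes with a count. Only in that library did the level per kilobase of Spp1 exceed that of Sparc, which was 411, and it did so also with the length of the longest transcript (916 against 677). In the other 5 libraries the level per kilobase of Spp1 was 131.5 to 184.2 and that of Sparc 379.0 to 966.4.

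Some markers of fat cells (Plin1, Lpl, Cidec, Cfd, Retn and Lep) were, like Spp1, highest in shControl at day 7. Of 10 adipocyte markers, 9 had at least 10 counts in shControl at day 7, and their summed level was 204.6 CPM, against 18.2 to 94.1 CPM in the other 5 libraries, where 3 to 6 of them passed 10 counts. The remaining markers of the list did not follow Spp1. Pparg was highest in shNFIB at day 7, at 84.2 CPM against 42.0 CPM in shControl. From day 0 to day 7 in shControl, Cebpa fell from 19.0 to 10.3 CPM and Fabp4 stayed at 4.63 CPM. The adipocyte marker Adipoq had at most 1 count in any library. The part of such cells in the level of Spp1 was not tested.

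A second gene model lies over the start of Spp1 on the same strand. Gm42793, a gene model of the class TEC (transcripts still awaiting experimental evidence), shares 309 bases of exon with Spp1, which is 18.8% of the exon bases of Spp1. How the reads of shared bases were assigned is not given in the sources used here. Gm42793 had 5 counts in shControl, 12 in shNFIB and 51 in shMLL1 at day 0, and 124, 142 and 306 at day 7. It thus differed from Spp1, since it was higher at day 7 in each of the 3 lines (log2 fold changes 4.66, 3.65 and 2.89) and highest in shMLL1. Over the 3 lines the day effect of Gm42793 was 3.61 on the log2 scale (SE 0.44, adjusted p = 0.0024, edgeR quasi-likelihood test). With its counts added to those of Spp1, the day effect of Spp1 was 2.67 in shControl, 0.09 in shNFIB and 0.48 in shMLL1.

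**Figure D2:**
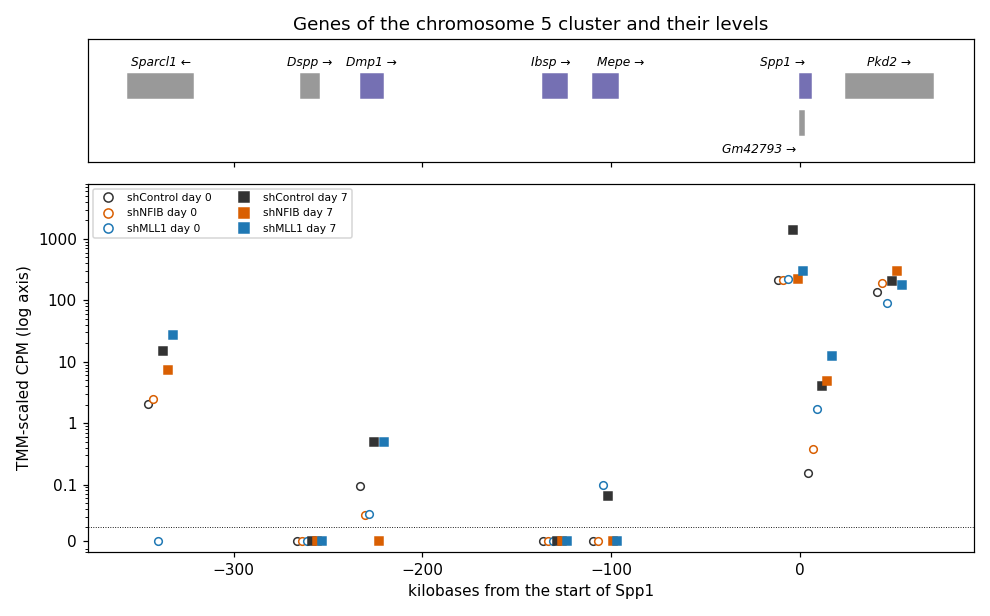
Genes of the chromosome 5 cluster drawn to scale by their distance from the start of Spp1 in kilobases (upper panel, members in purple, arrows for the strand) and their levels in the 6 libraries as TMM-scaled CPM on a log axis (lower panel, points spread sideways around each gene for legibility, libraries at 0 under the dotted line). Spp1 and Pkd2 were read in every library at over 90 CPM, and the genes between Sparcl1 and Spp1 stayed under 0.5 CPM.

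The other phosphoprotein genes of the cluster were hardly read. Ibsp, which nucleates mineral and binds integrins, had 0 counts in all 6 libraries, so that the floor of 3 counts leaves room for a level of up to 0.0939 to 0.123 CPM. Mepe, an osteocyte product, had 3 counts in shMLL1 at day 0, 2 in shControl at day 7 and 0 in the other 4 libraries, all at or under the floor. Dspp, the dentin member of the family, had 0 counts throughout.

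Dmp1, which osteocytes make and which regulates phosphate handling, had 3 counts in shControl, 1 in shNFIB and 1 in shMLL1 at day 0, and 15, 0 and 12 counts at day 7. The shControl and shMLL1 lines were thus alike at day 7 (0.49 CPM in each), while shNFIB had none. The log2 fold change over the days was 2.34 (0.57 to 4.82) in shControl and 3.72 (1.13 to 9.31) in shMLL1, both intervals lying above 0. At day 7 Dmp1 was 4.85-fold lower in shNFIB than in shControl if the floor of 3 counts is taken for the library at 0. That ratio is not a lower bound, since the counting interval of the log2 difference reached up to -1.80 and had no lower limit. Spp1 and Dmp1, some 221 kilobases apart, so differed in shMLL1 at day 7, with Spp1 4.55-fold lower than in shControl and Dmp1 at a log2 difference of -0.00 (-1.23 to 1.19).

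Just outside the members, both ends of the cluster carried expressed genes. Sparcl1, a relative of Sparc at the far end, had 65, 77 and 0 counts at day 0 and 456, 221 and 656 at day 7 in shControl, shNFIB and shMLL1, and missed the threshold over the 3 lines (adjusted p = 0.0591, edgeR quasi-likelihood test). Pkd2, next to Spp1, had 4446, 6096 and 2766 counts at day 0 and 6371, 8827 and 4352 at day 7, and rose by 0.73 on the log2 scale (SE 0.20, adjusted p = 0.0302). Neither set shControl at day 7 apart as Spp1 did.

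The osteocalcin genes stayed close to the floor. Osteocalcin binds calcium through carboxylated residues and marks late osteoblasts. Bglap (chromosome 3, 88383501 to 88384464, minus strand) had 4 counts in shControl, 2 in shNFIB and 3 in shMLL1 at day 0, and 13, 3 and 3 at day 7. Bglap2 had 1 count in each line before differentiation and 4, 0 and 0 at day 7. The highest count of both was thus that of shControl at day 7. Bglap was 1.74 higher on the log2 scale there than at day 0 (0.07 to 3.84).

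The copies are so alike that a read may fit another copy as well, and what became of such reads was not examined. Of the windows of 100 bases along the transcripts, 38.7% of Bglap and 57.0% of Bglap2 were identical to a stretch of another copy, so the split of counts between them is uncertain. Summed over Bglap, Bglap2 and Bglap3, the counts in shControl were 5 at day 0 and 19 at day 7, 1.97 higher on the log2 scale (0.52 to 3.77). At day 7 the sum was 3 in shNFIB and 3 in shMLL1, lower than in shControl by -2.57 (-5.02 to -0.85) and -2.30 (-4.74 to -0.58) on the log2 scale.

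Ifitm5, a gene of mineralizing osteoblasts (chromosome 7, 140948958 to 140950291, minus strand), had 10 counts in shControl, 16 in shNFIB and 23 in shMLL1 at day 0. At day 7 it had 79, 27 and 59 counts. In each line the day 7 library was the higher. Its log2 ratio of day 7 to day 0 was 3.03 in shControl (2.10 to 4.16), 1.66 in shMLL1 (0.95 to 2.43) and 0.84 in shNFIB (-0.09 to 1.84), where the interval includes 0. Gm45717, a gene model that shares 29.7% of the exon bases of Ifitm5 on the same strand, had at most 1 count.

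Sparc, the collagen- and calcium-binding osteonectin, was per kilobase the most abundant member in every library but shControl at day 7. Sparc (chromosome 11, 55394500 to 55423183, minus strand) had 100492 counts in shControl, 115596 in shNFIB and 73055 in shMLL1 at day 0, and 47477, 42433 and 48601 at day 7. Its levels were 2421 to 3661 CPM at day 0 and 1435 to 1992 CPM at day 7. The fall was near 2-fold in shControl and larger in shNFIB, at -1.01 (-1.03 to -0.999) and -1.35 (-1.37 to -1.33) on the log2 scale, and smaller in shMLL1 at -0.28 (-0.30 to -0.26).

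Postn, a matrix protein of periosteum and other fibrous tissue that binds collagen and integrins, took the opposite course. Postn (chromosome 3, 54361109 to 54391037, plus strand) had 16290 counts in shControl, 15132 in shNFIB and 14811 in shMLL1 at day 0, and 20456, 28563 and 29930 at day 7. Its levels were 479 to 510 CPM at day 0, and 671, 966 and 1227 CPM at day 7. Here shControl had the smallest increase, 0.40 on the log2 scale (0.37 to 0.43), against 1.01 for shNFIB (0.98 to 1.04) and 1.32 for shMLL1 (1.29 to 1.35).

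**Figure D3:**
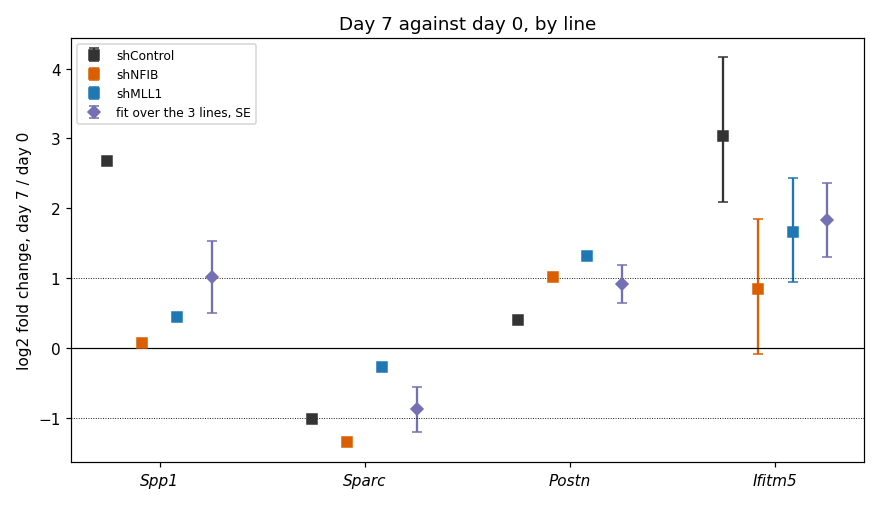
Log2 fold change from day 0 to day 7 of the 4 members with at least 10 counts in every library, for each line (squares, 95% counting interval, mostly smaller than the symbol) and from the fit over the 3 lines (diamonds, SE); dotted lines mark 2-fold. Spp1 stands at 2.67 in shControl and near 0 in shNFIB, whereas Postn is smallest in shControl.

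Over the 3 lines together, Ifitm5 and Postn rose from day 0 to day 7. The edgeR quasi-likelihood fit with line as a block tested 15708 genes, of which 17.1% were called higher and 17.3% lower at an adjusted p under 0.05, and 2 of the 4 members tested were called higher. Ifitm5 rose by 1.83 on the log2 scale (SE 0.53, adjusted p = 0.0371) and Postn by 0.91 (SE 0.27, adjusted p = 0.0403), each higher in 3 of 3 lines. Sparc had -0.88 (SE 0.32, unadjusted p = 0.0297, adjusted p = 0.0726, lower in 3 of 3 lines) and Spp1 1.02 (SE 0.52, adjusted p = 0.163, higher in 3 of 3 lines), and neither passed. The p-values measure the spread between these 6 libraries, with 2 residual degrees of freedom for a gene. The quasi-likelihood fit draws the spread of each gene towards a trend over all genes tested, so the p-values also rest on the other genes. In this fit a difference of the day effect between lines counts as error, and there are no replicates to tell it from noise. The day effect of Spp1 was 6.37-fold in shControl and 1.04-fold in shNFIB, so its missing call does not mean that it was unchanged in shControl.

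Leaving out any of the 3 lines changed at least 1 of these calls. Without shControl no member was called, with Ifitm5 at 1.27 (adjusted p = 0.205) and Postn at 1.17 (adjusted p = 0.088), and Spp1 fell to 0.25. Without shNFIB Ifitm5 was called (2.31, adjusted p = 0.0207) and Postn was not (0.86, adjusted p = 0.133), with Spp1 at 1.55. Without shMLL1 Sparc was called lower (-1.18, adjusted p = 0.0159), and Ifitm5 (1.94, adjusted p = 0.0593) and Postn (0.70, adjusted p = 0.0611) were not. Sparc was also called by DESeq2's Wald test (-0.86, adjusted p = 0.00659).

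Counted per line, past 2-fold among genes with at least 10 counts in 1 of the pair, the members divided as follows. In shControl 6 members reached the count minimum, of which Spp1, Dmp1, Bglap and Ifitm5 were higher and Sparc was lower, where 23% of all genes were higher and 14.9% lower. Sparc stood just past 2-fold there, and its log2 fold change was -0.999 with DESeq2's size factors and -0.91 with library size alone, which left 4 members past 2-fold in shControl. In shNFIB 4 reached it, of which Postn was higher and Sparc lower, against 16.5% and 13.9% of all genes. In shMLL1 5 reached it, of which Postn, Ifitm5 and Dmp1 were higher and none lower, against 25.8% and 19.8%. In shControl Dmp1 (15 against 3 counts) and Bglap (13 against 4), and in shMLL1 Dmp1 (12 against 1), reached it only through day 7. Their entry and their higher call thus came from the same count, so these shares are not read as a result about the members. With 1 library a condition, a difference in the day effect between lines could not be tested.

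The knockdown lines were compared with shControl at each day. Both comparisons share the shControl library of that day, so their values are set side by side. Before differentiation, of 4 members at the count minimum none passed 2-fold in shNFIB, where 7.26% of all genes were higher and 6.32% lower. In shMLL1 Ifitm5 alone was higher (1.27, interval 0.16 to 2.52, on 23 and 10 counts) and none was lower, against 11% and 9.35% of all genes. Spp1 differed from shControl by -0.00 (-0.05 to 0.05) in shNFIB and 0.05 (-0.00 to 0.10) in shMLL1, intervals that both include 0.

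At day 7 Spp1, Dmp1, Bglap and Ifitm5 were below shControl in shNFIB. That made 4 of 6 members lower and none higher, where 13.2% of all genes were lower and 8.07% higher. In shMLL1 Spp1 and Bglap were lower and none was higher, against 6.95% and 8.59% of all genes. Dmp1 in shNFIB (0 against 15 counts) and Bglap in both lines (3 against 13) reached the count minimum only through shControl. Hardly any call but lower was open to them, so these counts are not read as a result about the members. Among members with at least 10 counts in both libraries, Spp1 and Ifitm5 were lower in shNFIB and Spp1 in shMLL1, and the others lay within 2-fold. Spp1 was 6.11-fold lower in shNFIB and 4.55-fold lower in shMLL1. Ifitm5 was at -1.50 (-2.19 to -0.86) in shNFIB and -0.10 (-0.61 to 0.40) in shMLL1, the latter with an interval that includes 0. Bglap was at -2.03 (-4.52 to -0.21) in shNFIB and -1.76 (-4.25 to 0.07) in shMLL1, on 3 counts in each knockdown line, and the interval in shMLL1 includes 0.

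Postn and Sparc did not follow Spp1 at day 7. Postn was above shControl by 0.53 (0.50 to 0.55) in shNFIB and 0.87 (0.84 to 0.90) in shMLL1. Sparc was at -0.12 (-0.14 to -0.10) and 0.35 (0.34 to 0.37). All 4 values lie within 2-fold.

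**Figure D4:**
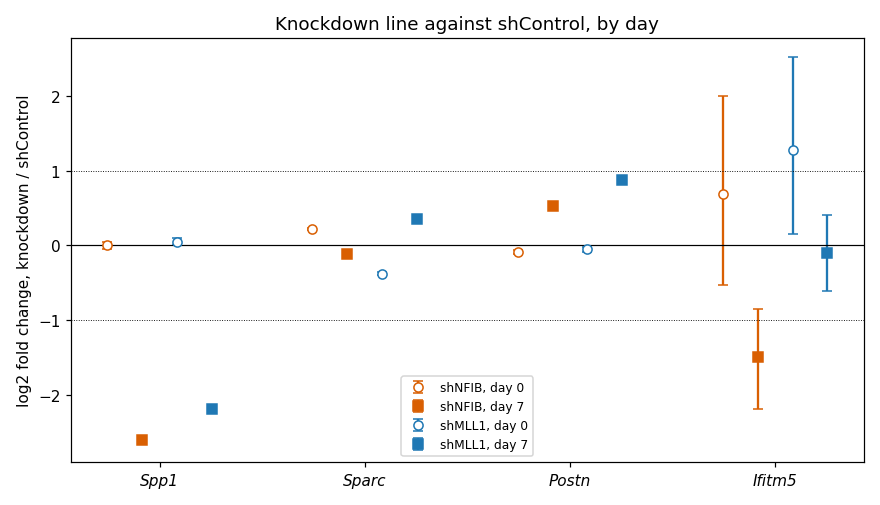
Log2 fold change of each knockdown line against shControl at day 0 (open circles) and day 7 (filled squares) for the 4 members with at least 10 counts in every library, with 95% counting intervals, mostly smaller than the symbol; dotted lines mark 2-fold. Spp1 is at 0 before differentiation and at -2.61 and -2.19 at day 7, while Postn is above 0 in both lines at day 7.

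Fitted over both days, no member was called between a knockdown line and shControl. The hairpin targets were not called in their own lines either. Nfib was at -2.39 in shNFIB (adjusted p = 0.158) and Kmt2a at -1.10 in shMLL1 (adjusted p = 0.167), edgeR quasi-likelihood test. A difference of the line effect between days counts as error in this fit, so a missing call does not mean that a member was unchanged. In shNFIB 0.0764% of the 15708 genes were called higher and 0.178% lower, and 1952 genes had an unadjusted p under 0.05. In shMLL1 the shares were 0.0127% and 0.0191%, and 1440 genes had an unadjusted p under 0.05. Spp1 was at -1.45 (SE 0.63, adjusted p = 0.418) in shNFIB and -1.27 (SE 0.62, adjusted p = 0.601) in shMLL1, unadjusted p = 0.0563 and 0.0825, edgeR quasi-likelihood test. None of the 4 members had an unadjusted p under 0.05 in either line, and DESeq2's Wald test called 0 of them as well.

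Genes with the most similar course over the 6 libraries were listed for the 4 members, by the root mean square difference of log2 CPM centred on each gene's mean, among the 15708 genes tested. For Spp1 the nearest were Runx2 (0.288) and Rilp (0.290), where the spread of Spp1 itself was 0.966. Runx2 is a transcription factor of the osteoblast lineage. Runx2 had 1047, 993 and 972 counts at day 0 and 3561, 898 and 862 at day 7 in shControl, shNFIB and shMLL1. Like Spp1, it was highest in shControl at day 7, apart from the other 5 libraries. The 6 libraries are the same for both genes of a pair, and 1 library carries most of the spread.

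**Figure D5:**
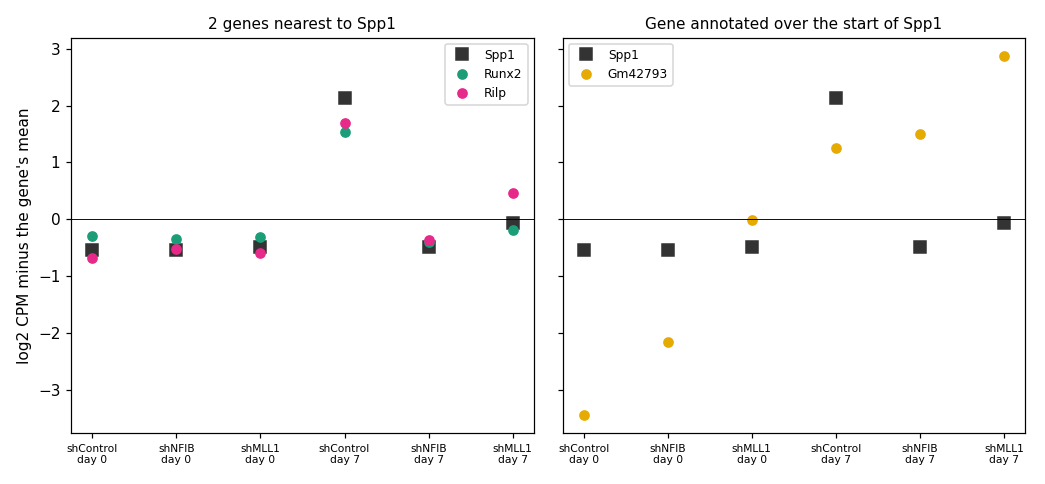
Log2 CPM minus the gene's mean over the 6 libraries, for Spp1 (squares) with its 2 nearest genes (left) and with Gm42793 (right). Runx2 and Rilp peak with Spp1 in shControl at day 7, whereas Gm42793 is above its mean in all 3 day 7 libraries.

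The nearest to Sparc were Samd1 (0.104), Sox12 (0.129) and Cad (0.130), where Sparc itself spread by 0.495. Those to Postn were 1700123M08Rik (0.0885), Gm43457 (0.0910) and Hist1h2bq (0.101), at a spread of 0.521. Those to Ifitm5 were Gm11100 (0.190), Gm43081 (0.202) and Syt12 (0.210), at a spread of 1.11. Gm43457 and Hist1h2bq had at most 23 and 15 counts in any library.

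The other genes of the pathway are counted against all 15708 genes tested, of which 17.1% rose and 17.3% fell from day 0 to day 7, and nothing particular to a list is read from its count. Of 14 enzymes that act on the members 13 were tested, and 4 rose and 2 fell over the 3 lines, with a median log2 fold change of 0.23 against -0.02 over all genes tested. Mmp3 rose by 4.21 (SE 0.84, adjusted p = 0.0117), Ctsk, the collagen-degrading cathepsin K, by 2.59 (SE 0.57, adjusted p = 0.016) and Mmp2 by 2.00 (SE 0.30, adjusted p = 0.00497). Fam20a, a partner of the secretory kinase that phosphorylates the SIBLING proteins, fell by 2.79 (SE 0.22, adjusted p = 0.000723). Bmp1, the protease that trims Dmp1 and procollagen, was among those that rose (1.38, adjusted p = 0.0193, edgeR).

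Of 10 receptors of the members 8 were tested, 2 rose and 5 fell, where 17.1% of all genes rose and 17.3% fell, with a median of -0.86. Cd44, a receptor of osteopontin, fell by 2.12 (SE 0.30, adjusted p = 0.00408), the integrin chain Itgb5 fell by 1.14 (SE 0.21, adjusted p = 0.00935) and Itgav fell by 1.00 (SE 0.21, adjusted p = 0.0145). Itga8, an integrin chain, rose by 3.14 (SE 0.35, adjusted p = 0.00169).

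Of 16 osteoblast transcription factors 12 were tested and 3 fell, where 17.3% of all genes fell, with a median of 0.04. The largest among those with at least 10 counts in every library was Cebpb, which fell by 1.35 (SE 0.21, adjusted p = 0.00579). Dlx5 (1.31, adjusted p = 0.073) and Atf4 (-1.30, adjusted p = 0.0602) did not pass, nor did Runx2 (0.63, adjusted p = 0.232). Of 8 mineralization enzymes and transporters 7 were tested, 1 rose and 3 fell, against the same shares of all genes (17.1% and 17.3%), with a median of 0.22. Enpp1, which makes the mineral inhibitor pyrophosphate, rose by 1.17 (adjusted p = 0.0162), while the phosphate transporters Slc20a1 and Slc20a2 had log2 changes of -1.12 (adjusted p = 0.0127) and -0.76 (adjusted p = 0.0349) and the pyrophosphate exporter Ank fell by 1.00 (adjusted p = 0.0127).

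Relatives and companions in the matrix are counted against the same shares of all genes, 17.1% higher and 17.3% lower. Of 14 paralogs of Sparc, Postn and Ifitm5, 10 were tested and Smoc2 rose (1.74, adjusted p = 0.00837), and the median was -0.01. Ifitm6 (-1.55, adjusted p = 0.118), Ifitm3 (-0.74, adjusted p = 0.28) and Ifitm1 (0.50, adjusted p = 0.365) did not pass. Of 29 other noncollagenous matrix genes 25 were tested, 8 rose and 6 fell, with a median of 0.27. Mgp, an inhibitor of calcification, rose by 3.06 (adjusted p = 0.000906) and Matn2 by 2.14 (adjusted p = 0.00205), Tnc fell by 3.18 (adjusted p = 0.00878), and Clec3b was at 2.16 (adjusted p = 0.0514). Of 7 bone collagens, all tested, 2 fell, with a median of -0.87. Col5a2 fell by 1.15 (adjusted p = 0.0161) and Col12a1 by 0.87 (adjusted p = 0.0319), and Col3a1 (-1.11, adjusted p = 0.0754) and Col1a2 (-1.05, adjusted p = 0.0578) did not pass.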

How the data were processed

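The authors trimmed reads with Trimmomatic (version 0.39), aligned them to the mouse genome GRCm38 with HISAT2 (2.2.1), kept reads of high mapping quality with SAMtools (1.12), removed duplicates and counted reads per gene with htseq-count (0.11.1). The deposited values are raw counts per gene for 6 libraries, each line and day 1 library; 0 rows named no gene. The members and gene lists were chosen with earlier results of these data known. Lengths and overlaps came from GENCODE M21, in which 55141 of 55401 identifiers matched. edgeR (4.0.16, R 4.3.3) gave TMM scaling and quasi-likelihood tests of line and day, after filterByExpr by day, with Benjamini-Hochberg adjustment over all 15708 genes tested and a threshold of 0.05 (SE from the fold change and its F statistic). Pairs of libraries had log2 fold changes with a prior count of 0.125 and exact Clopper-Pearson 95% intervals, with no test, and reads are not independent molecules, so intervals and floors cover counting error only. Alternatives were DESeq2 (1.42.0), other scalings, filters and prior counts, and left-out lines. Scripts were tested on simulated data. All members were named, with at most 4 genes of each related list, those with the largest day effect of those reaching 10 counts throughout, 3 nearest genes for each of the 4 members reaching that count, and genes on which a result turned. One gene that this rule names is not reported here. Neighbours in the cluster and Bmp1 were named after their values were seen.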

Additional observations from a re-analysis of the deposited data

Results flagged for a closer look

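Differences between a knockdown line and shControl pointed one way at day 0 and the other way at day 7 for Sparc and Postn, each beyond counting error. The change from day 0 to day 7 in that log2 difference was -0.34 for Sparc in shNFIB, 0.73 for Sparc in shMLL1, 0.62 for Postn in shNFIB and 0.93 for Postn in shMLL1. With 1 library a condition these differences were not tested. The day 0 value of Postn in shMLL1 was -0.06 and turned to 0.02 with DESeq2's size factors.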

How the results depend on the processing

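The numbers of genes past 2-fold depended on the count minimum and on an assumed spread. Without the minimum they were 12666, 11066 and 14789 from day 0 to day 7 in shControl, shNFIB and shMLL1 (6366, 4950 and 7773 with it), 7831 and 9364 in shNFIB against shControl at day 0 and day 7 (2135 and 3561), and 9651 and 9062 in shMLL1 (3275 and 2626). The members past 2-fold then numbered 4 in shNFIB and 5 in shMLL1 over the days, 1 in shNFIB and 3 in shMLL1 at day 0, and 4 in shMLL1 at day 7, since members under the count minimum entered. With edgeR's exact test at an assumed biological coefficient of variation of 0.2, genes called against shControl were 781 and 1607 in shNFIB and 1564 and 951 in shMLL1, and members called were 3 in shControl and 1 in shNFIB over the days, 0 in shMLL1 at day 0 and 1 at day 7. At 0.4 the counts of genes were 680, 805 and 1575 over the days, 149 and 219 in shNFIB and 160 and 111 in shMLL1, and 0 members were called in any pair. For the fit over lines and days, leaving out 1 line gave 2363 to 4972 genes and 0 to 1 members called over the days, against 5398 and 2, and no filter on low counts gave 4 members, Spp1 (adjusted p = 0.031) and Sparc (adjusted p = 0.0255) being added. For shNFIB over both days 585 genes were called by DESeq2's Wald test, 688 without the filter and 575 from the 4 libraries compared, against 40, and for shMLL1 404, 526 and 172, against 5. Members called in these line effects stayed at 0 in each setting. Library size alone as the scaling moved the median of all genes to 0.25 in shMLL1 over the days, from 0.04, and to -0.12 in shNFIB at day 7, from -0.01, and Sparc in shMLL1 then stood at -0.07 over the days. No called fold change of a member turned its direction in any setting. The causes were not tested. Leaving out 1 day in the line effects was not run, since no residual degrees of freedom remain. The line served as the block, which paired the 2 days. Pairing by replicate was not possible because each condition is 1 library with no replicate number. Low counts limit Dmp1, Mepe and the osteocalcin genes, and 2 residual degrees of freedom limit every test. The sum of Spp1 and Gm42793 was chosen after seeing the data.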
